A study of Mus musculus with 12 samples.

Results

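The nucleosome remodelling and deacetylase (NuRD) complex was described here through the mRNA of 10 subunit genes, namely *Chd3*, *Chd4*, *Mta1*, *Mta2*, *Mta3*, *Hdac1*, *Hdac2*, *Mbd3*, *Gatad2a* and *Gatad2b*. The subunits were listed by name, as the remodelling, scaffold, deacetylase, methyl-CpG-binding-domain and GATAD2 proteins of the complex. They and the related gene lists below were chosen with earlier results of these data known. All 10 were present among the 41444 genes of the deposited table, and all 10 were among the 11536 genes whose mean log2 value over the samples used was at least 3. NuRD joins an ATP-dependent nucleosome remodeller of the CHD family to the histone deacetylases HDAC1 and HDAC2, so that it can move nucleosomes and remove acetyl groups from histones within a single assembly. MTA proteins form the scaffold that holds the deacetylases, and MBD2 or MBD3, together with a GATAD2 protein, link this deacetylase core to the remodeller. In B cell precursors NuRD is known as a partner of the zinc finger protein Ikaros (*Ikzf1*), which brings it to DNA.

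The cells were bone marrow pre-B cells of *Ctnnb1* fl/fl mice, whose floxed β-catenin gene Cre can remove. They were grown with the cytokine IL7, transformed with the *BCR-ABL1* oncogene, a model of B cell acute lymphoblastic leukaemia (B-ALL), and then kept without IL7. The series holds 12 samples in 4 groups of 3, which carried either ERT2 or CreERT2 and were left without or given LY2090314, an inhibitor of the kinase GSK3β that otherwise marks β-catenin for degradation. Both groups used here carried the ERT2 vector, which has no Cre and leaves β-catenin intact. They had the same genotype and oncogene and the same 2 days of the tamoxifen metabolite 4-OHT at 1 µM, and differed in 1 day of LY2090314 at 40 nM, as the labels state (the study text gives a shorter exposure). The study states 3 mice as biological replicates and does not say whether the same mice served both groups. The labels do not tie a sample to a mouse. The p-values given here measure the spread between these samples, without pairing. Columns of CreERT2 cells could not be assigned to a group by their names and are not analysed here.

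Samples are called control 1, 2 and 3 and treated A, B and C, names that carry no pairing. The column names of treated A and B open with the same number, and what that number marks is not stated, so that A and B may share a mouse or culture. They were counted as separate samples, and with A and B averaged into 1 sample each NuRD subunit given below as fallen was still called lower, while *Hdac1* was not called. Values of A and B differed across genes with an SD of 0.186, against 0.185 to 0.239 within the controls and 0.253 for treated C with either of them. Differences between samples of different groups had SDs of 0.581 to 0.622. The read depth of the libraries is unknown, because the table holds regularized log2 (rlog) values in place of counts, which shrink differences of genes with few reads. All 9 B-lineage markers had a mean of at least 3, with *Cd79a* at 14.16, whereas none of 5 T-lineage, 3 erythroid and 3 stromal markers did. Of the 5 myeloid markers only *Lyz2* did, at 6.07, and *Mpo* and *Elane*, which define early myeloid cells, were listed at 0. With LY2090314, 8 of the 9 B-lineage markers fell and *Lyz2* rose. The remaining B-lineage marker, *Cd79a*, was higher by 0.23 on the log2 scale (SE 0.086, limma adjusted p 0.053) and was not called. The part of these markers in the results below was not tested. The summed linear level of the B-lineage markers was 78432 to 80014 in controls and 51211 to 56578 in treated samples, and that of the myeloid markers 56.9 to 65.6 and 83.9 to 91.0. In such bulk samples fewer cells of a type and less RNA per cell cannot be told apart.

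Of the 10 NuRD subunits, 6 fell with LY2090314, 1 rose and 3 did not pass the test, at an adjusted p under 0.05 (limma, Benjamini-Hochberg over 11536 genes). The 6 that fell were *Mta1*, *Chd3*, *Gatad2a*, *Mbd3*, *Chd4* and *Hdac2*, and the one that rose was *Hdac1*. Among all genes tested, 50.1% were called, 25.3% lower and 24.8% higher, so that a call by itself was common in this comparison. The median difference of the 10 subunits was −0.24 on the log2 scale, against 0.01 for all genes, whose quartiles were −0.23 and 0.25. The groups did not overlap for 8 of the 10 subunits, 7 lower and *Hdac1* higher, where 58.6% of all genes tested did not overlap, 29.5% lower and 29.1% higher. The exact two-sided permutation test of 3 against 3 samples cannot give a p under 0.10, the value it gave for each of these 8 subunits. Differences of the called subunits were mostly moderate, from 0.15 to 0.75 in size, where the median size over all called genes was 0.43.

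**Figure D1:**
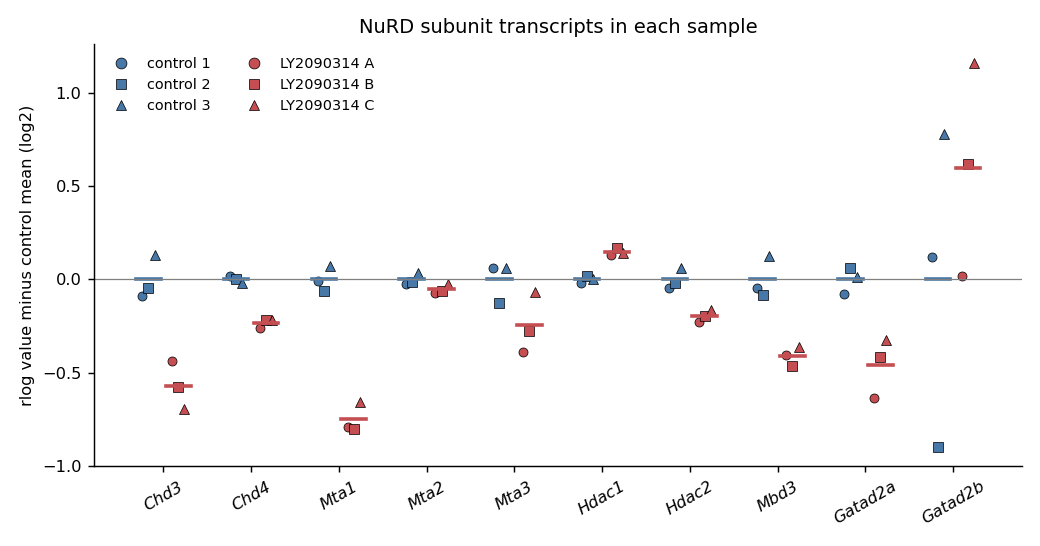
rlog value minus the control mean of the gene (log2, vertical axis) for the 10 NuRD subunit genes in 3 control (blue) and 3 LY2090314-treated (red) samples, with each point a sample and each bar a group mean. *Mta1*, *Chd3*, *Gatad2a* and *Mbd3* sit lower in all treated samples, *Mta2* is nearly level, and *Gatad2b* spreads most within each group.

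To show the sequence in front of the most and the least changed MTA genes, the bases before the start of *Mta1* and *Mta2* are given from RefSeq (GRCm38.p6), 5′ to 3′ on the plus strand, with GC boxes (GGGCGG or its complement CCGCCC) in capitals. The *Mta1* window, chr12:113098028-113098277, has 250 bases, 3 GC boxes and 39 CpG dinucleotides, and the *Mta2* window, chr19:8941670-8941874, which stops before an earlier start in GENCODE, has 205 bases, 2 GC boxes and 19 CpG dinucleotides.
Mta1: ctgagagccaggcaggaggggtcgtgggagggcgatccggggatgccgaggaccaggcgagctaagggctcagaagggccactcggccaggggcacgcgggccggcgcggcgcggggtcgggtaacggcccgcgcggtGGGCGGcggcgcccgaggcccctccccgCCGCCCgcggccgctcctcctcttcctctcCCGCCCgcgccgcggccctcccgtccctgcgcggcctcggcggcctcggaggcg
Mta2: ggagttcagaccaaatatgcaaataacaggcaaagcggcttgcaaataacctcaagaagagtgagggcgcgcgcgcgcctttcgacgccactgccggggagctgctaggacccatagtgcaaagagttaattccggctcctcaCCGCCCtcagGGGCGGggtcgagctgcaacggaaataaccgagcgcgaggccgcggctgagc
The GC content was 80.8% and 60.0%. A median of 6.0 CpG dinucleotides was found in 250-base windows of all genes. RefSeq windows of 250 bases were matched for 7 of the 10 subunits, as 10 windows, so that some subunits had more than 1. None was matched for *Chd3*, *Mta3* and *Hdac1*. GC boxes were present in all 10 of these windows, and in 32.7% of the 32851 windows of all genes. The MYC E-box CACGTG was in none of the 10 and in 6.02% of all windows, and the TCF/LEF core CTTTGA, the element bound by the partners of β-catenin, in none and in 13.8%. TGGGAA was in 1 of the 10, that of *Gatad2a*, and in 21.6% of all. It is the Ikaros core GGGAA named by the study with a T before it, and the shorter core was not searched by itself. Both strands were searched, and these letter matches describe the windows only.

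Both remodellers fell. *Chd4*, the main NuRD ATPase of most tissues, had the highest rlog level of the 10 subunits, above 99.1% of the genes tested. Its rlog values were 14.32, 14.30 and 14.28 in controls and 14.04, 14.08 and 14.08 in treated samples. The groups did not overlap and each was tight, with SDs of 0.021 and 0.024. *Chd4* (ENSMUSG00000063870, GRCm38 chr6:125095981-125130591, plus strand) fell by 0.24 on the log2 scale (SE 0.054, 95% interval −0.36 to −0.11), 1.18-fold, with an adjusted p of 0.0073. A scaRNA gene and *Mir7045* lie within it on the same strand.

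*Chd3*, the paralogous ATPase, had values of 10.82, 10.86 and 11.04 in controls and 10.47, 10.33 and 10.21 in treated samples. Every treated value was below every control value. The mean went from 10.90 ± 0.12 (SD, n = 3) to 10.34 ± 0.13 (SD, n = 3). *Chd3* (ENSMUSG00000018474, chr11:69343273-69369406, minus strand) fell by 0.56 (SE 0.083, 95% interval −0.76 to −0.37), 1.48-fold, with an adjusted p of 9.0e-04. A scaRNA gene, *Gm22442*, lies within it on the same strand. The log2 ratio of *Chd3* to *Chd4* within a sample changed by −0.33 (SE 0.12, exact permutation p = 0.10), from −3.40 ± 0.13 to −3.73 ± 0.15 (SD, n = 3), without overlap.

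The MTA scaffolds separated. *Mta1*, the founding gene of the metastasis-associated family, had the largest called difference of the 10. Its values were 11.32, 11.27 and 11.40 in controls and 10.54, 10.53 and 10.67 in treated samples, so that the groups were far apart compared with their spread. *Mta1* (ENSMUSG00000021144, chr12:113098278-113137206, plus strand) fell from 11.33 ± 0.066 to 10.58 ± 0.076 (SD, n = 3), by 0.75 (SE 0.058, 95% interval −0.88 to −0.61), with an adjusted p of 2.8e-05. The treated level was 59.6% of the control level. By size of difference it stood at rank 1240 of the 11536 genes.

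*Mta2*, which encodes the closely related scaffold, had 12.64, 12.65 and 12.70 in controls and 12.59, 12.60 and 12.64 in treated samples. The groups did not overlap, but after rounding they met at 12.64. Its difference (ENSMUSG00000071646, chr19:8941875-8952303, plus strand) was −0.06 (SE 0.046, 95% interval −0.16 to 0.05) with an adjusted p of 0.34, and it was called in none of the 12 other fits (adjusted p 0.20 to 0.58). The interval excludes a fall of the size seen for *Mta1*.

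*Mta3*, the least abundant MTA gene and one with a known role in B cells as a partner of BCL6, had 9.07, 8.88 and 9.07 in controls and 8.62, 8.73 and 8.94 in treated samples. Treated C lay above control 2, so the groups overlapped. The difference (ENSMUSG00000055817, chr17:83706163-83821516, plus strand) was −0.24 (SE 0.098, 95% interval −0.47 to −0.01), with an adjusted p of 0.074. Without treated C it was −0.33 and passed the threshold with an adjusted p of 0.014, whereas the other 11 fits gave 0.059 to 0.22.

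The ratio of *Mta1* to *Mta2* within a sample removes whatever scales both genes alike. On the log2 scale it was −1.32, −1.38 and −1.31 in controls and −2.05, −2.07 and −1.97 in treated samples, a change of −0.69 (SE 0.038, exact permutation p = 0.10). Again no treated value reached a control value. The *Mta3* to *Mta1* ratio changed by 0.50 (SE 0.069, exact permutation p = 0.10), without overlap, and the *Mta3* to *Mta2* ratio by −0.19 (SE 0.099, exact permutation p = 0.20), with overlap. Divided by the longest coding transcript of each gene and summed on the linear scale (the antilog of the rlog values), *Mta1* made up 28.7% ± 0.49 of the MTA transcripts in controls and 20.1% ± 0.47 in treated samples (SD, n = 3). *Mta2* made up 65.3% ± 0.80 and 73.9% ± 0.91. The share of *Mta3* was 6.1% ± 0.36 and 6.0% ± 0.51, with overlapping groups.

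The deacetylases moved in opposite directions. *Hdac1* had 11.82, 11.86 and 11.84 in controls and 11.97, 12.01 and 11.98 in treated samples, tight groups that did not overlap. *Hdac1* (ENSMUSG00000028800, chr4:129516104-129542713, minus strand) rose by 0.15 (SE 0.042, 95% interval 0.05 to 0.25), 1.11-fold, with an adjusted p of 0.02. This call was the least stable of the 7. It was lost without control 1 (difference 0.14, adjusted p 0.069), without control 2 (0.16, 0.059), without treated B (0.14, 0.081), with each sample centred on its median (0.12, 0.053) and with treated A and B averaged (0.15, 0.058), while its direction held in all 12 other fits (adjusted p 0.016 to 0.081).

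*Hdac2* had 11.59, 11.62 and 11.70 in controls and 11.41, 11.44 and 11.47 in treated samples. All treated values lay below the controls. *Hdac2* (ENSMUSG00000019777, chr10:36974544-37001889, plus strand) fell by 0.19 (SE 0.048, 95% interval −0.30 to −0.08), 1.14-fold, with an adjusted p of 0.011. The log2 ratio of *Hdac1* to *Hdac2* was 0.23, 0.24 and 0.14 in controls and 0.56, 0.57 and 0.51 in treated samples, so that every treated sample exceeded every control. It changed by 0.34 (SE 0.037, exact permutation p = 0.10). Per length, *Hdac1* made up 64.8% ± 0.87 of the transcripts of this pair in controls and 70.0% ± 0.46 in treated samples (SD, n = 3).

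*Mbd3*, which encodes a methyl-CpG-binding-domain protein that defines one form of NuRD, had 11.25, 11.21 and 11.42 in controls and 10.89, 10.83 and 10.93 in treated samples. The groups were clearly apart, with control 3 the highest. *Mbd3* (ENSMUSG00000035478, chr10:80392539-80399550, minus strand) fell by 0.41 (SE 0.065, 95% interval −0.56 to −0.26), 1.33-fold, with an adjusted p of 0.0013. *Mbd2*, which defines the other form of NuRD and binds methylated DNA, was not among the 10 but was measured as well. It had 11.99, 12.00 and 12.10 in controls and 11.17, 11.24 and 11.40 in treated samples. *Mbd2* (ENSMUSG00000024513) fell by 0.76 (SE 0.067), 1.69-fold, with an adjusted p of 6.0e-05. The log2 ratio of *Mbd2* to *Mbd3* changed by −0.35 (SE 0.063, exact permutation p = 0.10), from 0.73 ± 0.053 to 0.38 ± 0.095 (SD, n = 3), without overlap. Per length of the longest coding transcript, *Mbd2* went from 58.6% ± 0.89 to 52.6% ± 1.6 of the pair. With the median length it went from 55.6% to 49.6%, with 47.8%, 49.9% and 51.0% in treated A, B and C. In treated samples *Mbd2* was therefore the larger with the longest length (50.8%, 53.0% and 54.0%), whereas the pair could not be ordered with the median length.

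*Gatad2a*, which encodes the p66α bridge between the deacetylase core and the remodeller, had 11.62, 11.76 and 11.71 in controls and 11.06, 11.28 and 11.37 in treated samples. The groups did not overlap, although treated A lay well below B and C. *Gatad2a* (ENSMUSG00000036180, chr8:69907076-69996384, minus strand) fell by 0.46 (SE 0.082, 95% interval −0.65 to −0.27), 1.38-fold, with an adjusted p of 0.0023. *Gatad2b*, which encodes the paralogous bridge p66β, was the weakest signal of the 10, above 21.5% of the genes tested. Its values were 6.26, 5.24 and 6.92 in controls and 6.16, 6.76 and 7.30 in treated samples. The groups overlapped, and the control SD of 0.85 exceeded that of 99.7% of the genes tested. The difference (ENSMUSG00000042390, chr3:90293178-90363407, plus strand) was 0.60 (SE 0.43, 95% interval −0.39 to 1.60) with an adjusted p of 0.28, so that neither a fall like that of *Hdac2* nor a rise above 1 on the log2 scale was outside its interval. Over the 12 other fits it ranged from 0.15 to 0.99 without a call (adjusted p 0.083 to 0.75). Gene models on both strands overlap *Gatad2b*, and their values are not analysed here.

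**Figure D2:**
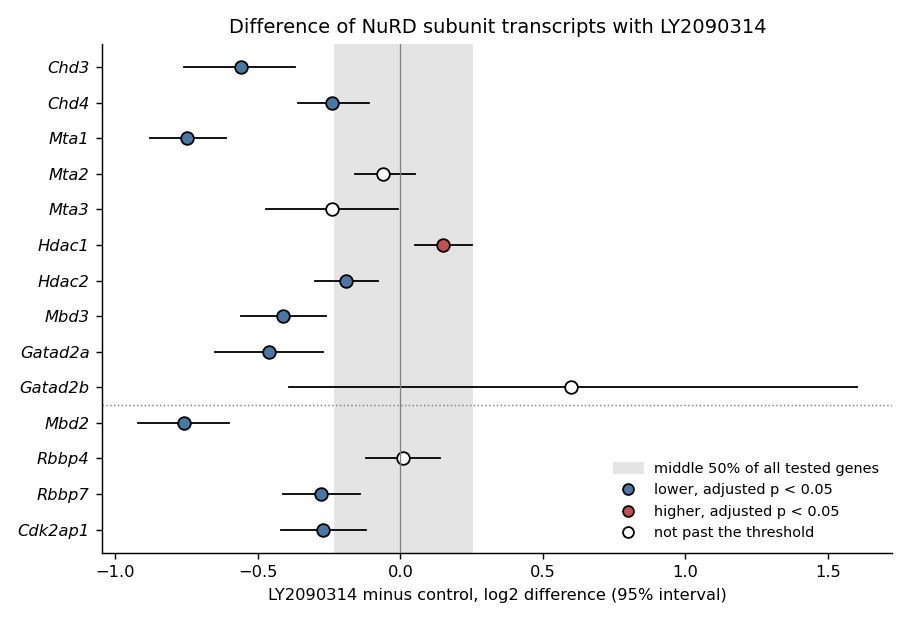
Difference of LY2090314-treated minus control samples (log2, horizontal axis) for the 10 NuRD subunits and, under the dotted line, 4 further subunits, with points for the limma estimate, bars for its 95% interval, colours for the call and a grey band for the range between the quartiles of all tested genes (−0.23 to 0.25). Intervals of *Mta1*, *Chd3*, *Gatad2a*, *Mbd3*, *Chd4* and *Hdac2* lie below 0, that of *Hdac1* above 0, and that of *Gatad2b* runs from −0.39 to 1.60.

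**Figure D3:**
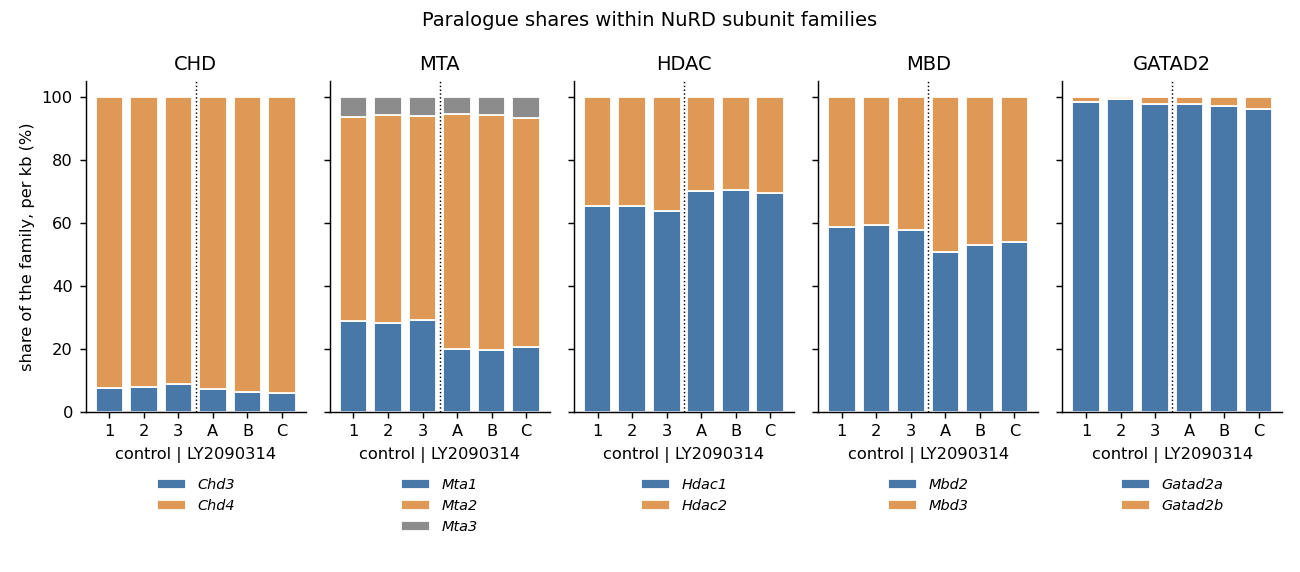
Share of each paralogue in the summed linear level of its family (percent, vertical axis), per kilobase of the longest coding transcript, in controls 1 to 3 and treated samples A to C. The *Mta1* share is 28.1 to 29.1% in controls and 19.7 to 20.6% in treated samples, and the *Hdac1* share 63.8 to 65.3% and 69.4 to 70.3%.

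The shares, and for the CHD and GATAD2 families also their changes, depend on the transcript length used. With the median in place of the longest coding transcript length, the *Mta1* share changed by −8.4 percentage points (−8.6 with the longest) and *Hdac1* went from 59.8% to 65.3%, whereas *Chd3* made up 16.6% of the CHD pair in controls and 13.7% in treated samples, against 8.1% and 6.5% with the longest. The CHD change was then −2.9 percentage points for *Chd3*, against −1.5. *Gatad2a* made up 98.4% ± 0.82 of the GATAD2 transcripts in controls and 97.0% ± 0.84 in treated samples (SD, n = 3), with overlapping groups, a change of −1.4 percentage points that was −3.5 with the median length. Its log2 ratio to *Gatad2b* changed by −1.06 (SE 0.57, exact permutation p = 0.20), also with overlap, and by −0.58 without control 2 and −1.45 without control 3.

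Per kilobase of the longest coding transcript, the control levels (log2) ran from *Chd4* at 11.56 through *Mta2* (11.02), *Hdac1* (10.81), *Mbd3* (10.56), *Hdac2* (9.94), *Mta1* (9.83), *Gatad2a* (9.37), *Chd3* (8.04) and *Mta3* (7.59) to *Gatad2b* at 3.24. Each neighbour in this order held its place in 3 of 3 controls. In treated samples *Mta2* and *Hdac1* could not be ordered, both at 10.96, and *Chd3* and *Mta3* were 0.14 apart, in that order in 2 of 3 samples. With the median transcript length *Mbd3* (11.01) came ahead of *Hdac1* in all controls and could not be ordered against *Mta2* (11.02), whereas in all treated samples *Hdac1* (10.96) came ahead of *Mbd3* (10.60). *Gatad2a* (9.89) and *Mta1* (9.85) could not be ordered in controls with that length. The most and least abundant subunits were *Chd4* and *Gatad2b* with either length.

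**Figure D4:**
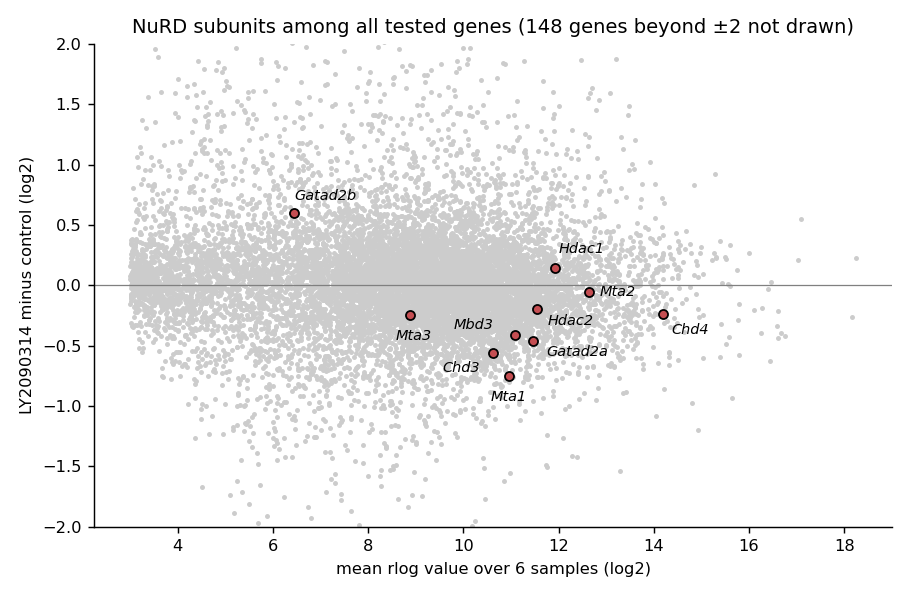
Mean rlog level over the 6 samples (horizontal axis) against the log2 difference of treated minus control samples (vertical axis), for all tested genes in grey and the 10 NuRD subunits named, with 148 genes beyond ±2 not drawn. Most subunits lie in the upper range of levels and below 0, *Hdac1* lies above 0, and *Gatad2b* stands alone at a low level.

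Within groups several subunits had their highest or lowest value in the same sample. Control 3 was the highest control for 6 of the 10 subunits, and treated C the highest treated sample for 7, while treated A was the lowest for 7. Such counts are not given for all genes tested. Across all genes tested, control 3 differed from controls 1 and 2 with SDs of 0.239 and 0.222, against 0.185 between controls 1 and 2. Treated C differed from A and from B with an SD of 0.253, against 0.186 between A and B. The median deviation from the group mean was 0.06 over the subunits in control 3, against 0.01 over all genes tested, and 0.04 against 0.01 in treated C. These deviations were smaller than each of the 7 called differences.

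Further NuRD subunits were measured outside the 10. Of 5 such genes 4 were tested and 3 fell, *Mbd2* as given above, *Rbbp7* and *Cdk2ap1*, with a median difference of −0.27. Of all genes tested 25.3% were called lower. *Rbbp7*, which encodes a histone-binding WD40 protein, had 12.80, 12.73 and 12.81 in controls and 12.45, 12.45 and 12.61 in treated samples and fell by 0.28 (SE 0.059, adjusted p 0.0056). *Cdk2ap1*, the gene of the small subunit DOC1, had 11.30, 11.40 and 11.32 against 11.01, 11.01 and 11.20 and fell by 0.27 (SE 0.065, adjusted p 0.01). *Rbbp4*, the paralogue of *Rbbp7*, behaved otherwise, with 13.38, 13.36 and 13.35 in controls around the values of 13.31, 13.35 and 13.46 in treated samples. Its difference was 0.01 (SE 0.056, 95% interval −0.12 to 0.14, adjusted p 0.86). *Rbbp4* went from 43.2% to 48.2% of the *Rbbp4* and *Rbbp7* transcripts per length of the longest coding transcript. With the median length it went from 47.1% to 52.2%, so that the larger gene in treated samples depended on the length used. *Chd5*, a remodeller known mainly from neurons and testis, was below the limit, with values from 0.40 to 0.93 in the 6 samples.

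Among 16 factors that bring NuRD to chromatin or dock on it, 12 were tested, 7 fell and 3 rose, with a median difference of −0.27. The background shares of 25.3% lower and 24.8% higher apply here as well. The largest fall was that of *Bcl11a*, a zinc finger repressor required for early B cell development, from 11.21 ± 0.056 to 9.25 ± 0.086 (SD, n = 3), by 1.96 (SE 0.060, adjusted p 2.5e-07). The largest rise was that of *Ikzf3*, which encodes the Ikaros relative Aiolos, with 11.80, 11.74 and 11.65 against 12.83, 12.87 and 12.66, by 1.06 (SE 0.070, adjusted p 1.2e-05). *Ikzf1* itself had 13.63, 13.57 and 13.57 in controls and 13.34, 13.34 and 13.39 in treated samples and fell by 0.23 (SE 0.050, adjusted p 0.0062). *Ikzf2*, *Bcl11b*, *Sall1* and *Sall4* were below the limit.

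Corepressor complexes that share HDAC1 and HDAC2 or use other deacetylases gave other mixtures of calls. Among all genes tested 50.1% were called, 25.3% lower and 24.8% higher, which is the background for each list below. In the Sin3 complex, 5 of 14 genes were called, 3 lower and 2 higher, with a median of −0.14. *Ing2*, a reader of methylated histone H3, fell by 0.45 (SE 0.086, adjusted p 0.0035) and *Arid4b* rose by 0.47 (SE 0.081, adjusted p 0.002). In the CoREST complex, which pairs the same deacetylases with the demethylase LSD1, 7 of 10 were called, 2 lower and 5 higher, with a median of 0.10, and 4 without control 1 or without treated B. *Gse1* rose by 0.73 (SE 0.074, adjusted p 1.2e-04) and *Rcor3* fell by 0.43 (SE 0.12, adjusted p 0.017).

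In the mitotic deacetylase complex MiDAC neither of the 2 tested genes of 3 was called by limma, and neither had an unadjusted p under 0.05. Of 9 other histone deacetylases 8 were tested, 2 fell and 1 rose, with a median of −0.08. *Hdac10* fell by 0.97 (SE 0.093, adjusted p 9.0e-05) and *Hdac8* rose by 0.42 (SE 0.081, adjusted p 0.0033).

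Other remodellers were mixed as well, where 25.3% of all genes tested were called lower and 24.8% higher. Of 6 CHD genes outside NuRD 1 fell and 2 rose, with a median of 0.17. *Chd7*, the gene mutated in CHARGE syndrome, had 8.67, 8.53 and 8.68 in controls and 10.06, 9.95 and 9.97 in treated samples and rose by 1.37 (SE 0.065, adjusted p 2.2e-06), 2.58-fold. *Chd1* fell by 0.23 (SE 0.068, adjusted p 0.023), a call lost in 4 of 12 other fits (adjusted p 0.013 to 0.08). Of 22 BAF subunits 21 were tested, 6 fell and 5 rose, with a median of 0.00. *Smarca2*, the gene of the ATPase BRM, rose by 0.70 (SE 0.13, adjusted p 0.0024) and *Smarcb1* fell by 0.44 (SE 0.069, adjusted p 0.0012). Of 6 ISWI genes 5 were tested and 3 fell, with a median of −0.15, led by the ATPase gene *Smarca5*, which fell by 0.34 (SE 0.056, adjusted p 0.0017). Among 9 histone acetyltransferases, which oppose the deacetylases, 1 fell (*Kat2a*, by 0.40, SE 0.062, adjusted p 0.0011) and 2 rose, *Kat6b* most (by 0.45, SE 0.081, adjusted p 0.0025). Their median was 0.12, and 5 were called without treated C.

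**Figure D5:**
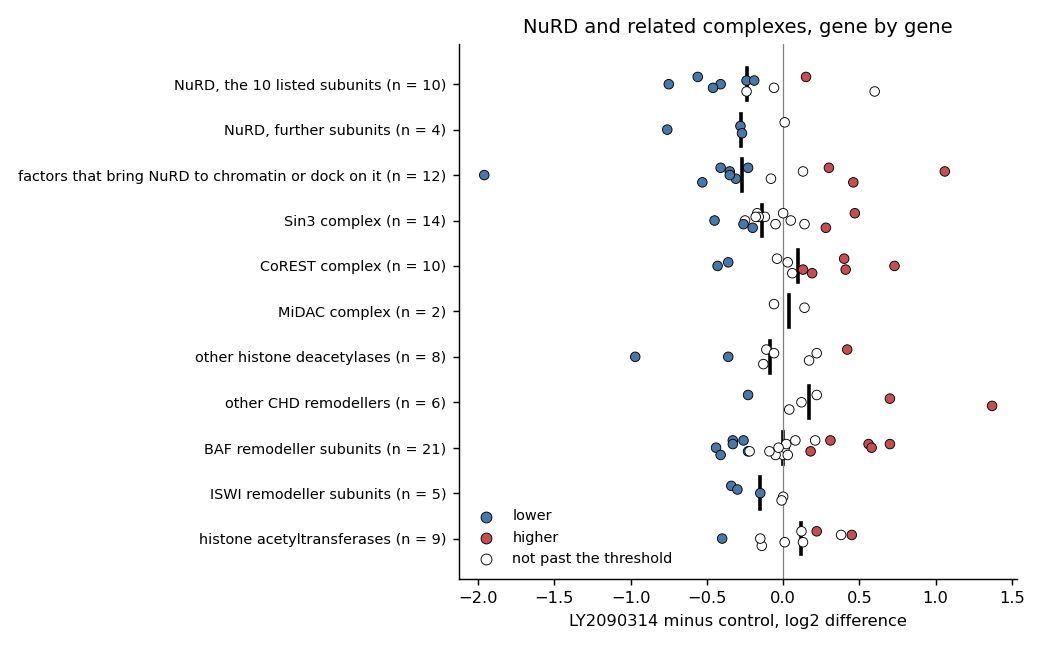
Log2 difference of treated minus control samples (horizontal axis) for each tested gene of NuRD, its recruiting factors and related complexes, with blue for lower, red for higher, white for not past the threshold and a black bar for the median of a list. Of the 10 listed NuRD subunits 6 are blue and 1 is red, of the CoREST genes 2 are blue and 5 are red, and *Bcl11a* and *Chd7* lie farthest out. Of all genes tested 25.3% were called lower and 24.8% higher.

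The genes whose values over the 6 samples were most like those of *Mta1*, by Euclidean distance after centring each gene on its mean, were *Tac4* (distance 0.069), *Steap3* (0.070) and *Wdr46* (0.078). *Tac4* is a tachykinin gene, *Steap3* encodes a metalloreductase of iron uptake, and *Wdr46* encodes a nucleolar protein. *Steap3* had 10.53, 10.54 and 10.67 in controls and 9.79, 9.74 and 9.90 in treated samples, so that control 3 and treated C were the highest of their groups, as for *Mta1*. Over all 3 genes the differences were −0.75, −0.77 and −0.78, and their likeness to *Mta1* follows from the choice by distance.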

How the data were processed

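RNA-seq was made from polyadenylated RNA with a stranded kit and paired-end reads. Per the labels and the study's methods, the authors' reads were checked with FastQC 0.11.9, quantified with Salmon, aligned with STAR to GRCm38 and processed with SAMtools 1.7, Picard 2.23.8 and DESeq2 1.30.1. The authors deposited a table of log2 values (rlog, counts scaled by size factors and shrunken for genes with few reads) for 41444 genes and 12 columns. Columns were assigned to groups by name, 3 to ERT2 and 3 to ERT2 with LY2090314, and the other 6 were not used. Counts were not used here, so no depth, counting interval or count-based test is given.

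The 11536 genes with a mean of at least 3 over the 6 samples were fitted in R 4.3.3 by the limma package, version 3.58.1, with its moderated test and mean-variance trend. A gene was called at a Benjamini-Hochberg adjusted p under 0.05. An exact two-sided permutation test over samples was added for single genes and ratios. Fold changes refer to the rlog scale. The calculation was also run on simulated independent samples with 200 changed genes. That setting differs from the data, in which 50.1% of the genes tested were called, so no conclusion about the calls is drawn from it. Symbols were matched for 41157 of 41444 identifiers, and positions and transcript lengths were taken from a GENCODE annotation of GRCm38 earlier than that of the authors. Promoter windows came from RefSeq.

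The subunits and gene lists were chosen with earlier results of these data known. Genes named are the 10 subunits, the further NuRD subunits, the called gene with the largest rise and fall of each list, *Ikzf1* and *Ikzf3*, and the 3 genes closest to the subunit with the largest called difference. Values of *Myc* and *Ctnnb1* were not needed. One related list is not reported here. Alternatives were a fit without trend, no lower limit, a limit of 5, median centring, quantile normalization, leaving out each sample, averaging treated A and B, and a threshold of 0.01.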

Additional observations from a re-analysis of the deposited data

How the results depend on the processing

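At the threshold of 0.05, 6 of the 10 NuRD subunits were called lower in each other fit, except that 7 were called lower without treated C, and *Hdac1* was called higher or not called. Between 6 and 8 subunits were called when a sample was left out. At a threshold of 0.01, 5 were called, all lower, where *Hdac1* and *Hdac2* were no longer called. Over all genes, 4734 to 6228 were called when a sample was left out and 4021 at 0.01. *Rbbp4* changed sign without being called, to −0.03 without treated C (adjusted p 0.57) and −0.01 with median centring (adjusted p 0.88), where its alternatives gave 0.57 to 0.94. With each sample left out in turn it ranged from −0.03 to 0.04. The calls in the Sin3 complex went from 5 to 3 at a threshold of 0.01, and those in CoREST from 7 to 4. Scaling moved the median of all genes by less than 0.1, to −0.015 with median centring and −0.037 with quantile normalization. The cause of these changes was not tested. No paired analysis was possible because the columns carry no replicate number of the sample titles, and the fit with a replicate block was not run. With 3 samples a group no exact test could pass 0.05, and without counts the precision of low genes such as *Gatad2b* could not be set against their depth.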
